A study of Homo sapiens with 4 samples.

Results

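GAS5, SNHG1, SNHG3, SNHG5, SNHG6, SNHG7, SNHG8, SNHG12, SNHG15 and SNHG16 are long non-coding genes whose introns carry small nucleolar RNAs (snoRNAs). They were chosen by name as 10 of the 23615 genes of the authors' deposited table, and all 10 were listed there. The cells were HEK293T, a human embryonic kidney line, stably overexpressing Flag-SIRT7, a tagged form of a nuclear and nucleolar deacylase. The input group was 2 libraries of total RNA from these cells. The SIRT7 RIP group was 2 libraries of RNA recovered on anti-Flag gel (RNA immunoprecipitation). Both groups carried the transgene, both were depleted of ribosomal RNA, and neither had a treatment. The comparison asks which RNAs are recovered with SIRT7. Whether the line is 1 clone and whether replicates were separate cultures is not given in the labels, so the p-values measure the spread between these libraries, which may be technical. A pull-down from untagged cells was not analysed here, so any RNA held by the gel alone would be part of the RIP values.

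Small nucleolar RNAs guide 2′-O-methylation (box C/D) or pseudouridylation (box H/ACA) of ribosomal and other RNAs. They are freed from the excised introns of a host transcript, while the spliced exons leave as a separate RNA. Many hosts begin with a 5′ terminal oligopyrimidine tract (5′TOP), the cytosine start and pyrimidine run also found on ribosomal protein mRNAs. In several hosts the spliced RNA carries only short reading frames, enters ribosomes and is removed by nonsense-mediated decay. GAS5 is the best known case, named for its accumulation in growth-arrested cells.

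The annotated starts are shown first because this group of genes is defined in part by a 5′TOP start. Windows of 50 bases, 25 on each side of the annotated start, were taken from RefSeq (GRCh38.p14) for 8 of the 10 genes. They are written 5′ to 3′ on the gene's own strand. No window was found for SNHG15, and that of SNHG6 is not reported here and not counted below. Capitals mark the longest run of C or T, or the first such run where lengths tie, as in SNHG1. The build differs from that of the fragment table (hg19), and the annotated start is not a start measured in these cells.
GAS5 (chr1:173869021-173869070, minus strand): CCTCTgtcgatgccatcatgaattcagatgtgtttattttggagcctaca
SNHG1 (chr11:62855861-62855910, minus strand): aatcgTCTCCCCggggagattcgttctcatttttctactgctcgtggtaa
SNHG3 (chr1:28505918-28505967, plus strand): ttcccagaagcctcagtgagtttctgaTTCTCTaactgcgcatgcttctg
SNHG5 (chr6:85678709-85678758, minus strand): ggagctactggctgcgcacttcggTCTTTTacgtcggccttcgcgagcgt
SNHG7 (chr9:136728160-136728209, minus strand): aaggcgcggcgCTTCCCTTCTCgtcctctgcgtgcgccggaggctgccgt
SNHG8 (chr4:118278737-118278786, plus strand): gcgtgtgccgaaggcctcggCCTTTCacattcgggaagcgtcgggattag
SNHG12 (chr1:28581849-28581898, minus strand): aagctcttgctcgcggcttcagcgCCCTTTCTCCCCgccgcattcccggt
SNHG16 (chr17:76557739-76557788, plus strand): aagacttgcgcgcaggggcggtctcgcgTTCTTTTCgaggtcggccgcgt

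A run of 6 or more C or T was present in 7 of these 8 windows, against 44.6% of 35116 RefSeq promoter windows of the same length. GAS5 was the exception, with a longest run of 5. Its window rests on the annotated start used here and does not show how GAS5 RNA begins in these cells. The letters CTTT were present on the gene's strand in 4 of the 8 windows, those of SNHG5, SNHG8, SNHG12 and SNHG16, against 18.7% of all promoter windows. On the opposite strand CTTT was in 0 of the 8, against 16.6% of all windows. The 7 runs of 6 or more began at positions from -20 (SNHG1) to 4 (SNHG16) relative to the annotated start. These genes were grouped in part by a 5′TOP start, so an excess of such letters may follow from how they were picked. A match describes letters only and was not read as a start site.

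Fragments on genes summed to 18131602 and 17310753 in the input libraries and to 25655455 and 25998032 in the RIP libraries. The RNA of SIRT7 itself had 27016 and 26126 fragments in input and 875555 and 871168 in RIP. On the edgeR fit described next its log2 fold change was 5.23. Markers fixed for HEK293T were all 10 tested and summed to 273.4 to 280.8 CPM (fragments over scaled library size) in input and 301.4 to 315.2 in RIP. Of 15 markers of blood, fibroblast, endothelial, liver and other cells, 4 were at 0 and 8 had at most 3 fragments in all. They summed to 13.39 to 14.2 CPM in input and 17.75 to 19.58 in RIP. The lists overlapped gene by gene, since 3 of the 15 passed the count filter as well. COL1A1 had 636 fragments over all libraries and ACTA2 619, more than LHX1 (182), PAX2 (42) and NEFH (27) of the HEK293T list.

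GAS5 was the one gene of the 10 with enough fragments to be compared, and its share of the fragments was higher in RIP. SNHG1, SNHG3, SNHG6, SNHG7, SNHG8, SNHG12 and SNHG15 had 0 fragments in all 4 libraries. SNHG5 had 1 fragment, in RIP replicate 2, and SNHG16 had 2, both in input replicate 1. The table's status column marked none of the 40 entries of these 10 genes as failed. A count of 0 allows up to 3 fragments. That limit is 0.1275 and 0.1357 CPM in the 2 input libraries and 0.1506 and 0.1488 CPM in the 2 RIP libraries, for counting error only. GAS5 was at 1037 to 2204 times that limit. No fold was computed for the other 9 genes, and these values do not show that their RNAs were absent from the cells.

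GAS5 had 3171 and 3111 fragments in input and 6483 and 6613 in RIP. On the CPM scale, which adjusts for library size with TMM factors, it stood at 134.8 and 140.7 in input against 325.5 and 327.9 in RIP. Both RIP libraries were above both input libraries, and the gap was wide against the spread within each group. The group means were 137.7 ± 4.17 CPM (SD, n = 2) and 326.7 ± 1.74 CPM (SD, n = 2). The log2 fold change was 1.25 with a standard error (SE) of 0.0682. A normal approximation on that SE gave a 95% interval of 1.11 to 1.38, which is too narrow for so few libraries. GAS5, at a 2.37-fold difference, was called higher (edgeR's quasi-likelihood test, Benjamini-Hochberg adjusted p = 1.331e-10). Such a call was common in these data. Of 14555 tested genes, 38.0% were called higher in RIP and 39.7% lower (77.7% in all). GAS5's fold change was above that of 87.59% of all tested genes.

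**Figure D1:**
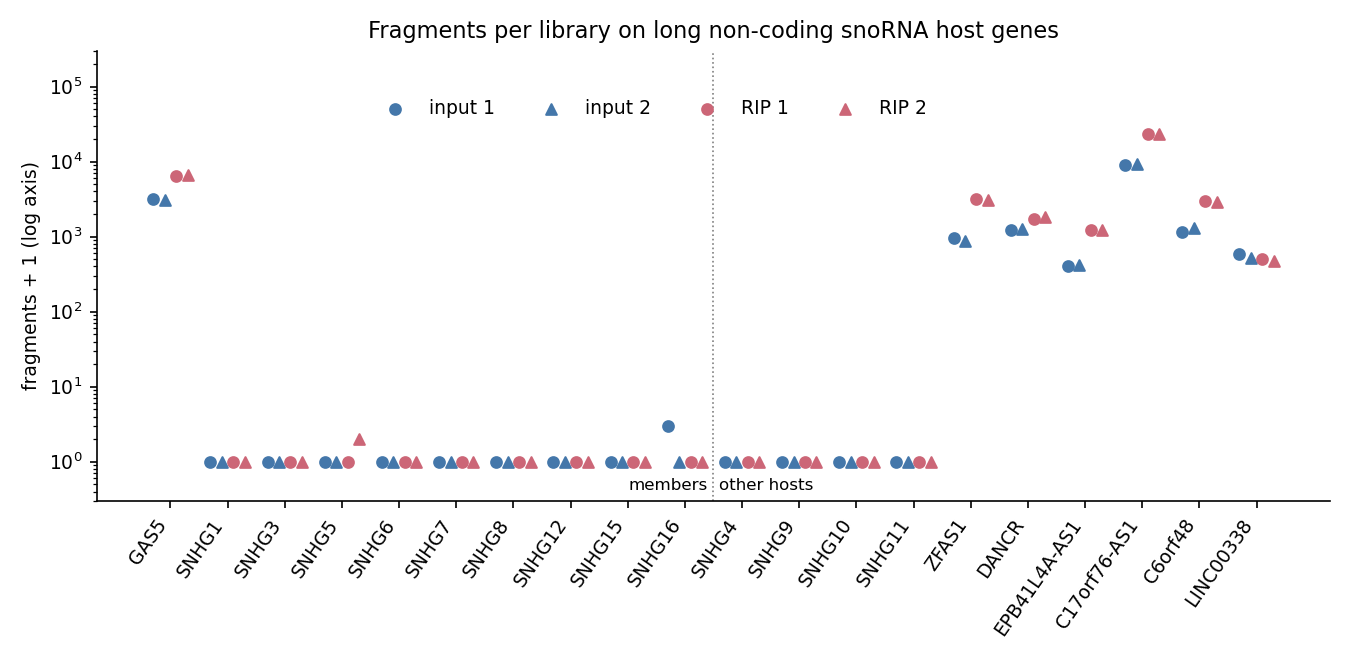
Fragments plus 1 (log axis) in each library for the 10 genes (left of the dotted line) and for other long non-coding snoRNA hosts (right). Blue marks input, red marks RIP, and circles and triangles mark replicates 1 and 2. GAS5 stands at 3111 to 6613 fragments and the other 9 at 0 to 2, while the 6 tested hosts at the right, with names outside the SNHG series, are all counted.

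The size of the GAS5 difference depended on scaling, and its direction on gene length. With library totals alone, the log2 fold change was 0.52 (edgeR, adjusted p = 2.392e-06), where 17.0% of genes were called higher and 65.5% lower (82.6% in all). Over all tested genes, short genes had larger fold changes than long ones (Spearman's rho -0.6 across 14555 genes, a correlation across genes, which do not count as replicates). GAS5 is short. Its effective length was 0.1605 of that of the median tested gene, and 1.649% of tested genes were shorter. With offsets that take out the smooth trend of fold change on length, the log2 fold change of GAS5 was -0.35 with an SE of 0.0675 (edgeR, adjusted p = 0.0002619), a call in the lower direction. With these offsets 33.6% of tested genes were called higher and 34.6% lower (68.2% in all). So GAS5 was higher in RIP than in input as a share of fragments, and lower than genes of its length. Whether the length trend arose in the pull-down or in library preparation was not tested.

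**Figure D2:**
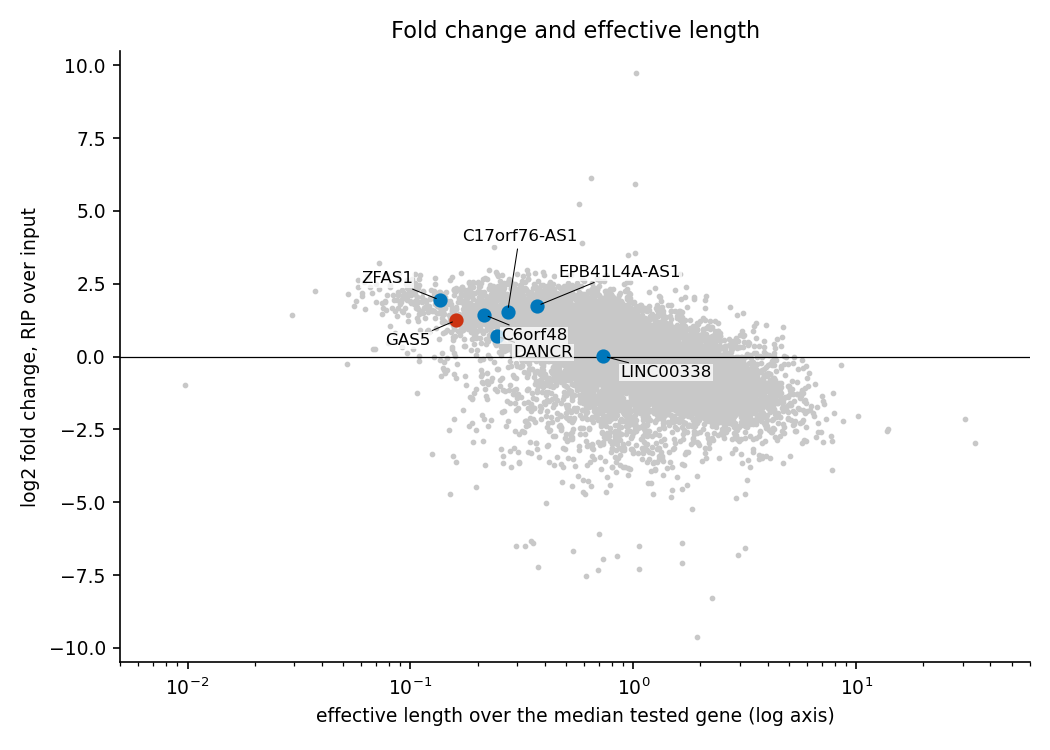
Log2 fold change of RIP over input (vertical) against effective length over that of the median tested gene (log axis). Grey points are the 14555 tested genes, red is GAS5 and blue are 6 other long non-coding snoRNA hosts. GAS5, at 0.1605 of the median length and 1.25, lies among short genes with fold changes above 0.

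On the scale of FPKM (fragments scaled by transcript length and library size, as deposited), the level of GAS5 was 286.3 and 304.3 in input and 706.8 and 710.7 in RIP. Group means were 295.3 ± 12.8 (SD, n = 2) and 708.8 ± 2.74 (SD, n = 2). Its rank by FPKM among all 23615 genes was 208 and 209 in input and 229 and 230 in RIP, so its place in the whole table was nearly unchanged. Among 1247 genes that RefSeq classes as long non-coding, GAS5 ranked the fourth in both input libraries. C17orf76-AS1, BCYRN1 and PCNA-AS1 were above it there. In both RIP libraries it was the second, below C17orf76-AS1. BCYRN1, a short cytoplasmic RNA, had 302 and 370 fragments in input and 138 and 166 in RIP. PCNA-AS1 had 1508 and 1521 in input and 1626 and 1541 in RIP.

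Together the 10 genes took 0.0175% and 0.01797% of the fragments in input and 0.02527% and 0.02544% in RIP. Group means were 0.01774% ± 0.000332 (SD, n = 2) and 0.02536% ± 0.00012 (SD, n = 2). GAS5 was 99.94% or more of that sum in each library. As a share of summed FPKM the order turned. The share was 0.06301% ± 0.00103 (SD, n = 2) in input and 0.05407% ± 9.899e-05 (SD, n = 2) in RIP. The groups overlapped on neither scale, and with 2 against 2 libraries an exact permutation test cannot go below p = 0.3333.

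Against other long non-coding RNAs, GAS5 was on the high side of the RIP difference before length was taken into account. Of 502 tested RefSeq long non-coding genes, 144 (28.69%) were called higher and 174 (34.66%) lower, against 38.0% and 39.7% of all tested genes. Their median log2 fold change was -0.11, beside -0.03 over all tested genes. GAS5 exceeded 87.65% of them. With length offsets 76 (15.14%) were called higher and 237 (47.21%) lower, against 33.6% and 34.6% of all genes. The median was then -0.56, and GAS5 exceeded 54.18% of them. With library totals 65 (12.95%) were called higher and 284 (56.57%) lower, against 17.0% and 65.5% of all genes. Among the tested genes whose 4 log2 CPM values lay nearest to those of GAS5 (Euclidean distance 0.1 to 0.18) were the protein-coding genes NGRN, SUMO3, ECHS1 and SNRPD1. Their log2 fold changes were 1.15, 1.30, 1.21 and 1.10, and closeness to that of GAS5 follows from how they were picked.

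The antisense gene GAS5-AS1 was lower in RIP, under TMM factors and with length offsets. It had 89 and 112 fragments in input and 19 and 15 in RIP. Its log2 fold change was -2.37 with an SE of 0.278 (edgeR, adjusted p = 1.079e-06), and -3.88 with length offsets, under which GAS5 was called lower too. For each GAS5-AS1 fragment there were 35.63 and 27.78 GAS5 fragments in input and 341.2 and 440.9 in RIP. ZBTB37, a zinc-finger gene that overlaps GAS5 in RefSeq, had 384 and 278 fragments in input and 79 and 78 in RIP, a log2 fold change of -1.88. The library kit kept strand, but the strand setting of the counting is not given in the sources used here. Fragments of GAS5, GAS5-AS1 and ZBTB37 that share bases may therefore have been assigned to either gene.

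The snoRNAs inside these hosts were almost without fragments. Of 34 intronic snoRNAs listed for the 10 hosts, 32 were in the table, and 28 of those had 0 fragments in all 4 libraries. The other 4 had 1 fragment each, all in RIP. They were SNORD44 and SNORD76 of GAS5, SNORD26 of SNHG1 and SNORD50B of SNHG5, all box C/D guides. Across the table, 372 of 381 genes named SNORA, SNORD or SCARNA were at 0, and none had over 1 fragment. All 1278 genes of the microRNA class were at 0 too. These libraries therefore give no comparison of mature snoRNAs with their spliced hosts.

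Genes listed under an SNHG symbol were almost without fragments. All 13 genes listed under an SNHG symbol had at most 2 fragments over the 4 libraries, 11 had 0, and their sum was 3. Besides 9 of the 10 genes described here, these were SNHG4, SNHG9, SNHG10 and SNHG11, each at 0. Of all 23615 genes, 20.33% were at 0, and 27.51% of the 1247 long non-coding genes. The 7 long non-coding hosts tested under another symbol had 2087 to 64924 fragments each. They were GAS5, ZFAS1, DANCR, EPB41L4A-AS1 and 3 genes that RefSeq now calls SNHG29 (C17orf76-AS1), SNHG32 (C6orf48) and SNHG20 (LINC00338). These 7 are hosts that passed the count filter, so their range leaves out hosts with few fragments. A further gene, C1orf204, now SNHG28 in RefSeq, had 8 fragments and was not tested. MEG8, which RefSeq matches to the names SNHG23 and SNHG24, was listed too, but its fragments were not examined here. This split by symbol was chosen after the values were seen. How the authors' annotation or counting treated genes with SNHG symbols was not tested.

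The regions around the 9 nearly empty genes held counted genes. In RefSeq order, counting protein-coding and long non-coding genes only, 13 of their 18 adjacent genes passed the count filter. Of all listed genes, 13301 of 18808 protein-coding and 502 of 1247 long non-coding genes passed. The share among the neighbours was thus near that of protein-coding genes in general. Each of the 9 had at least 1 neighbour that passed. Not all neighbours had many fragments. HTR1E, beside SNHG5, and LCN10, beside SNHG7, had 0, and RAB42, beside SNHG12, had 0 to 13 per library. SNHG1 lies between WDR74, with 820 to 1533 fragments per library, and SLC3A2, with 3797 to 6585. SYNCRIP, beside SNHG5, had 4757 to 5435 fragments. RCC1, a nuclear exchange factor gene that overlaps SNHG3, had 5158 to 8179. FAM69B, which overlaps SNHG7, had 1550 to 5421, and TRNAU1AP, which overlaps SNHG12, had 706 to 1139. How fragments in the overlaps were assigned is not given in the sources used here, so part of these counts may come from the host transcripts.

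Other hosts that passed the count filter were read beside GAS5, from fragments per gene, which do not separate spliced from unspliced RNA. ZFAS1, a host of box C/D snoRNAs that lies antisense to ZNFX1, had 967 and 877 fragments in input and 3161 and 3042 in RIP. DANCR, a host known as a differentiation-antagonizing RNA, had 1207 and 1279 in input and 1713 and 1852 in RIP. EPB41L4A-AS1 had 410 and 419 in input and 1218 and 1219 in RIP. In each of the 3, both RIP libraries were above both input libraries, in fragments and in CPM. The share of all tested genes separated in this way was not counted. By edgeR, which is another measure, 77.7% of tested genes were called in either direction. The RIP libraries also held more fragments in all. With library totals alone, DANCR was called in neither direction (log2 fold change -0.03, edgeR adjusted p = 0.7696). The annotated starts of the 3 hosts are shown for comparison with those above.
ZFAS1 (chr20:49278617-49278666, plus strand): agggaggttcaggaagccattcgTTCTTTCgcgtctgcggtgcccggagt
DANCR (chr4:52712369-52712418, plus strand): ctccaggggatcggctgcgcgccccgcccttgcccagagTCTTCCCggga
EPB41L4A-AS1 (chr5:112160501-112160550, plus strand): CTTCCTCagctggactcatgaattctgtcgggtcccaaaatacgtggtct

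The log2 fold changes were 1.94 (SE 0.0739) for ZFAS1, 0.70 (SE 0.08) for DANCR and 1.74 (SE 0.0868) for EPB41L4A-AS1. The edgeR adjusted p-values were 3.351e-12, 7.548e-07 and 4.603e-11. All 3 were thus called higher, as was GAS5, where 38.0% of all genes were. By FPKM the order of levels was GAS5, ZFAS1, DANCR and EPB41L4A-AS1 in every library. The RIP means were 708.8 ± 2.74, 397.8 ± 14.7, 127.1 ± 5.72 and 57.24 ± 0.549 (SD, n = 2), with no overlap between neighbours in that order. With length offsets the 4 genes parted. ZFAS1 (0.23, adjusted p = 0.009962) and EPB41L4A-AS1 (0.73, adjusted p = 2.392e-06) were still called higher by edgeR. DANCR (-0.62, adjusted p = 5.326e-06) was called lower, as was GAS5. The differences between these 4 fold changes were not tested.

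Among the hosts renamed since, C17orf76-AS1 had 8929 and 9249 fragments in input and 23192 and 23554 in RIP. Its log2 fold change was 1.55 (SE 0.0722, edgeR adjusted p = 2.189e-11), and 0.29 with length offsets (adjusted p = 0.001734). C6orf48 had 1166 and 1288 fragments in input and 2969 and 2878 in RIP. Its value was 1.44 (SE 0.0823, edgeR adjusted p = 2.296e-10), and 0.03 with length offsets (adjusted p = 0.7928). LINC00338 had 594 and 512 fragments in input and 505 and 476 in RIP. It had a log2 fold change of 0.02 (SE 0.0947, edgeR adjusted p = 0.8854), and -0.36 with length offsets (adjusted p = 0.003571). It was also the longest of the 7 counted hosts, at 0.7332 of the median length.

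**Figure D3:**
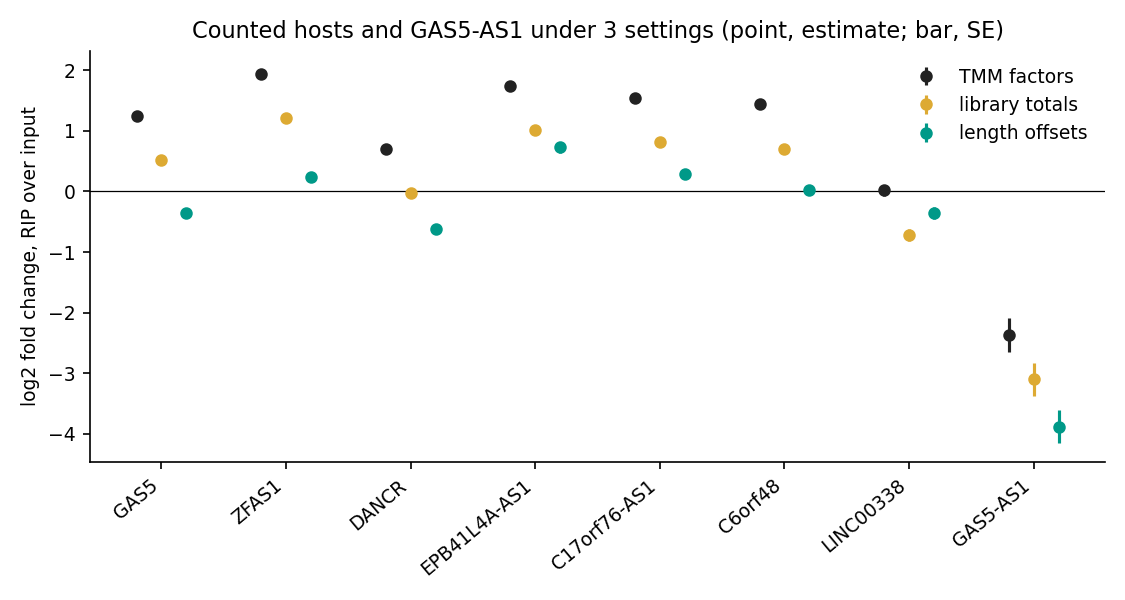
Log2 fold change of RIP over input, with bars of 1 SE (often smaller than the point), for the 7 counted hosts and GAS5-AS1 under TMM factors, library totals and length offsets. GAS5 stands at 1.25, 0.52 and -0.35, and GAS5-AS1 is below 0 under all 3 settings.

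Genes with related roles were read from the same fit. The shares of all tested genes to set beside each count are 38.0% higher and 39.7% lower with TMM factors, 33.6% and 34.6% with length offsets, and 17.0% and 65.5% with library totals. Of 57 genes listed as protein-coding snoRNA hosts, 44 were called higher and 10 lower. The median of the 57 log2 fold changes was 1.02 (all tested genes, -0.03). One of the 57 is C6orf48, which RefSeq now classes as long non-coding. RPL13, RPSA and RPS2, ribosomal protein genes with 5′TOP starts, had log2 fold changes of 2.83, 2.66 and 2.60 (edgeR, adjusted p = 6.302e-13 each). With length offsets 26 of the 57 were called higher and 19 lower, and the median was 0.11. The share called lower was then near that of all genes. With library totals the numbers were 30 and 21.

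The mRNAs of all 8 listed proteins that package snoRNAs were tested. That of FBL, the methyltransferase of box C/D particles, had a log2 fold change of 1.80 and NHP2L1, which binds the box C/D kink-turn, of 1.59. NOP56, a scaffold of the same particle, was called lower at -0.89, and its partner NOP58 had 0.05 (edgeR, adjusted p = 0.4792). Of the box H/ACA set, NHP2 (2.13), NOP10 (1.60) and GAR1 (0.88) were called higher and DKC1, the pseudouridine synthase, lower (-0.55). In sum 5 of the 8 were higher and 2 lower. With length offsets 3 were higher and 3 lower, near the shares of all genes, and NOP10 (-0.15) and GAR1 (-0.18) were then called in neither direction. With library totals 4 were higher and 3 lower.

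Of 16 genes of nonsense-mediated decay, 7 were called higher and 6 lower, near the shares of all genes, with a median of 0.06. RBM8A (0.95), of the exon junction complex, and RNPS1 (0.84), which associates with it, were higher, though RNPS1 was called in neither direction with library totals (0.11). SMG1 (-1.94), the kinase of UPF1, was lower, but stood at -0.26 with length offsets (edgeR, adjusted p = 0.04926). CASC3 (-0.72), a further exon junction complex gene, named here after its value was seen, was lower too. With length offsets 6 were higher and 5 lower. Library totals gave 2 higher and 12 lower. The last list held RNAs chosen as long non-coding, without snoRNAs and nuclear. Their place in the cell was not measured here, and RefSeq classes TUG1 among them as protein-coding. Of 9 tested, 6 were called lower and 3 higher, with a median of -1.20. With length offsets, under which GAS5 was called lower as well, 5 were lower and 1 higher (median -0.98). With library totals 7 were lower and 2 were called in neither direction. MALAT1 had 33810 and 22867 fragments in input and 3341 and 3762 in RIP, a log2 fold change of -2.80. TUG1 had -2.21, and JPX, one of the 3 called higher, had 0.82, but was called in neither direction with length offsets (0.17) or library totals (0.09). These counts describe the lists and were not tested against GAS5.

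**Figure D4:**
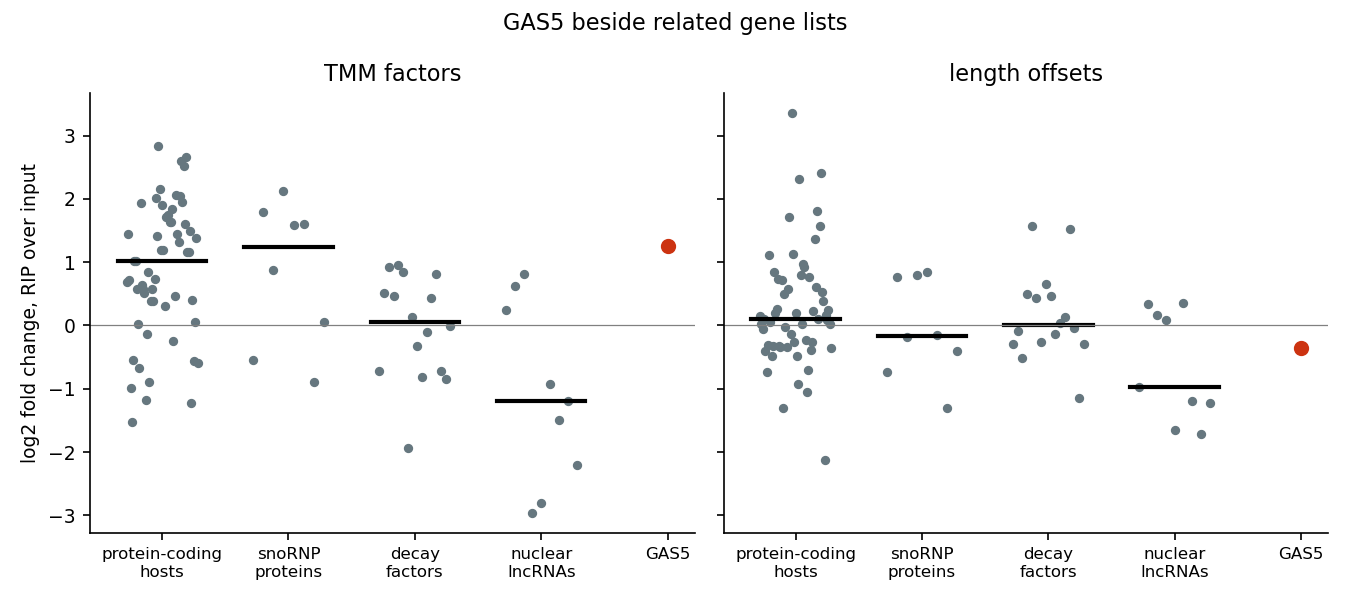
Log2 fold change of RIP over input for each tested gene of 4 lists (grey points, black bar at the median) and for GAS5 (red), with TMM factors (left) and length offsets (right). The medians on the left run from 1.24 for proteins of snoRNA particles to -1.20 for nuclear long non-coding RNAs, and GAS5 moves from 1.25 to -0.35 between the panels.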

How the data were processed

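RNA from HEK293T cells was sequenced in 2 input and 2 SIRT7 RIP libraries. Per the submitters' processing notes, the tools were Cuffdiff 2.2.1, TopHat2 2.0.13, Bowtie2 2.2.6 and cutadapt 1.5, and the build was hg19. Neither the annotation, nor the strand setting, nor the treatment of multi-mapped reads is given in those notes or the labels. The deposited table gives expected counts, which are estimates of fragments on each gene made by the authors (97.94% whole). A deposited scaled signal holds the same fragments divided by 1 factor per library (0.93 to 1.1232), and the deposited FPKM values are length- and library-scaled by the authors. In the status column, 12 of 94460 entries, from 7 genes, read as failed.

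Expected counts were rounded and tested with edgeR 4.0.16 in R 4.3.3: filterByExpr at its defaults (minimum count 10, minimum total 15), TMM factors, glmQLFit and glmQLFTest, group as the only term, Benjamini-Hochberg adjustment over all tested genes at 0.05. An SE is the size of the log2 fold change over the square root of its F statistic. The input libraries had TMM factors of 1.298 and 1.278, the RIP libraries 0.7767 and 0.7759. Effective length was scaled fragments over FPKM. Length offsets took out a lowess trend (span 0.3) of log2 fold change on log2 effective length. The fits were also run on simulated counts in which few genes differed, unlike these data. Those runs do not show how the scaling behaves where most genes are called. Gene names, classes and order came from RefSeq (GRCh38.p14), to which 22609 genes matched by name.

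Replicates were kept apart, since their difference exceeded sampling noise (chi-square over genes, 6.17 a gene in input and 3.4 in RIP). The table numbers replicates from 0 and the labels from 1, and the order was kept. Named were all 10 members, other long non-coding hosts in the table, host snoRNAs with a fragment, all snoRNA-particle proteins, leading genes of the other lists and genes among the 5 nearest profiles. Some genes that this rule or the gene order would name are not reported here. Members and lists were chosen with earlier results of these data known. Depth bounds counting error alone, since fragments are not single molecules. Alternatives are given in the closing section.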

Additional observations from a re-analysis of the deposited data

How the results depend on the processing

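With 2 libraries a group, no untagged pull-down and no stated strand setting, precision and the source of overlapping fragments are limited. The 9 hosts with 0 to 2 fragments allow no fold, and the cause of their low counts was not tested. GAS5 kept its direction and call under all 12 settings without a length correction (log2 fold change 0.516 to 1.295, highest adjusted p = 2.392e-06 by edgeR, DESeq2 or limma). These were library totals, RLE size factors, no count filter, the replicate block, scaling without the 10 most abundant genes, DESeq2, log2(FPKM + 1), log2(FPKM + 0.1) and leaving out each library in turn (1.21 to 1.295). With length offsets, alone or with the replicate block, it was -0.352, so that 0 of the 10 genes were called higher and 1 lower. The trend these offsets take out was 1.6 at its length. Library totals called 2479 genes higher and 9539 lower, and moved the share of calls that were higher from 48.89% to 20.63% and the median log2 fold change of all genes from -0.03 to -0.76. The 10 genes' share of summed FPKM was 0.06301% in input and 0.05407% in RIP, against 0.01774% and 0.02536% of fragments. DANCR was -0.025 with library totals, -0.623 with length offsets and -0.622 with the block added. LINC00338 was -0.715, -0.356 and -0.355 under the same settings, and -0.03 to 0.074 with a library left out. NOP58 was -0.678 with library totals and -0.413 with length offsets, block or not. NOP10 was -0.155 and -0.154 with length offsets without and with the block, and GAR1 -0.18 and -0.179. The cause of these changes was not tested further. The replicate numbers were not taken as pairs, since deviations of same-numbered libraries correlated at 0.041 over 14555 genes. With the replicate block, GAS5 was 1.246 (SE 0.0773), and 5580 genes were called higher and 5861 lower. The lone library left after leaving 1 out was assumed to vary like the other group.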
